A study of Homo sapiens with 12 samples.

Results

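Read-through genes are listed in gene tables under the joined names of 2 neighbours, such as BCL2L2-PABPN1. They were taken here as every name made of 2 parts and 1 hyphen in which either part is itself a listed gene, without antisense and related suffixes, HLA genes, HOXA10 names and microRNAs, with 10 or more normalized counts in 3 or more of the 12 libraries. Of 14866 genes listed, 97 had such a name and 79 passed the filter. Of these 79, 74 join 2 genes and are described below, and 5 carry only a suffix 2 or IT2. The other 18 names were below the filter. For 61 of the 74 both neighbours were listed, for 10 the upstream one and for 3 the downstream one. RefSeq holds 73 of them, 42 as protein coding and 31 as long noncoding RNA.

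A read-through transcript arises when RNA polymerase passes the poly(A) site of one gene and goes on into the next gene on the same strand, after which splicing joins exons of both. Some of these RNAs encode a fusion of both proteins, and others are candidates for nonsense-mediated decay, the pathway that removes RNAs with an early stop codon. Cleavage and polyadenylation factors, which cut the nascent RNA at the poly(A) site, are known to limit read-through.

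RNA came from SHI-1, an acute myeloid leukemia cell line with the MLL-AF6 fusion gene, after 16 h in DMSO, in 0.3 µM disulfiram with 1 µM copper (DSF), in 5 µM niclosamide (NSM), or in the combined drugs (DSF+NSM). There were 3 libraries per group from independent experiments, and the labels do not say whether the DMSO and NSM cells also received copper. The values are the authors' normalized counts, that is, estimated reads divided by a library factor. All 10 myeloid markers examined were listed at 10 or more in every library, and the B-cell marker MS4A1 was at 0. NSM replicate 3 stood apart from the other NSM libraries, with rank correlations of 0.939 and 0.950 against 0.994 between those 2, and counts that move without it are given both ways.

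The splice junction is the sequence that sets these RNAs apart from both neighbours. A junction inside the coding sequence was found for 32 of the 74, and the 5 below belong to loci whose values are described next. Each line gives the last 20 bases of the exon shared with the upstream gene in lower case and the first 20 of the exon shared with the downstream gene in capitals, read from GRCh38 with GENCODE 44 models.
CKLF-CMTM1: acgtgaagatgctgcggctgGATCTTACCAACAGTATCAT
BCL2L2-PABPN1: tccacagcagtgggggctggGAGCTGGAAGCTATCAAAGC
ISY1-RAB43: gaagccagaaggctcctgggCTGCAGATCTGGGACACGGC
ARPC4-TTLL3: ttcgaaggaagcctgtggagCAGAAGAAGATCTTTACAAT
RBM14-RBM4: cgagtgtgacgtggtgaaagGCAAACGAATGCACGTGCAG
On chromosome 16 the CKLF-CMTM1 junction runs from base 66552793 to base 66577104 of the plus strand, over an intron of 24310 bases. On chromosome 14 that of BCL2L2-PABPN1 runs from 23308199 to 23322181, and on chromosome 3 that of ARPC4-TTLL3 runs from 9801756 to 9812943, both on the plus strand. ISY1-RAB43 lies on the minus strand of chromosome 3, with its junction from 129130088 to 129095169. The RBM14-RBM4 junction runs from 66617057 to 66643450 on the plus strand of chromosome 11.

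Nearly all other sequence of these genes is shared with a neighbour. In GENCODE 44, 61 of the 74 were matched, 58 of them with both neighbours, and all 58 lay on the strand of both. The median read-through gene had 2.72% of its exon bases, or 101.5 bases, in neither neighbour, and the range ran from 0% to 63.5%. Under 200 bases were their own in 39 of the 58, and none in 19, among them ISY1-RAB43 and HNRNPUL2-BSCL2. The neighbours were a median of 3297.5 bases apart, 32 pairs under 5000 bases, and 7 pairs overlapped. A read from a shared exon fits both genes, so the level of a read-through gene depends on how the counting split such reads, and the tables do not show that split.

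**Figure D1:**
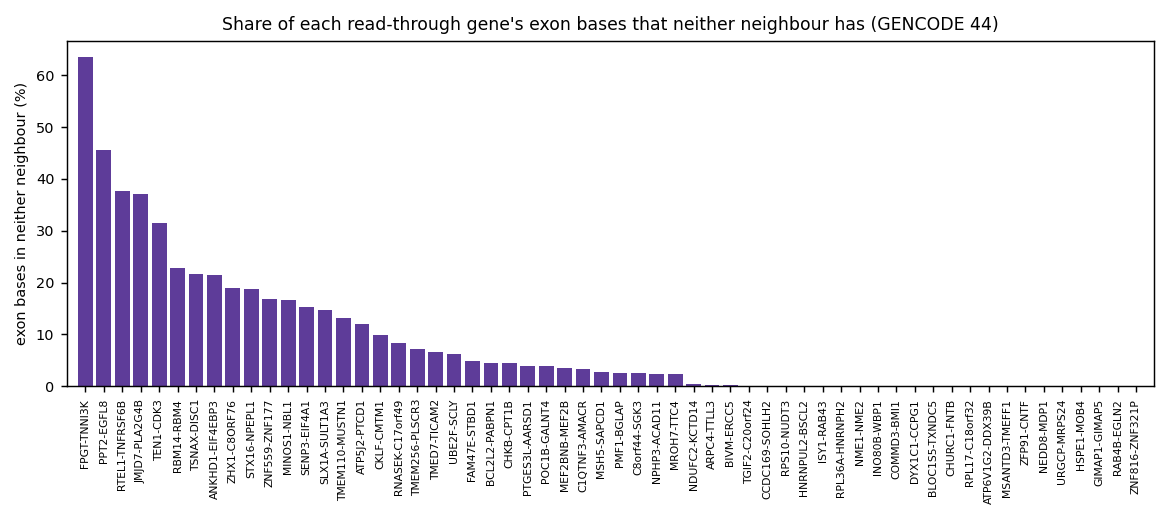
Percent of exon bases in neither neighbour (vertical axis) for the 58 read-through genes matched with both neighbours, each bar 1 gene. FPGT-TNNI3K is highest at 63.5%, the median is 2.72%, and 19 bars are at 0.

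The 74 genes ranged in mean normalized count over the 12 libraries from 3.71 to 2695, with a median of 62.9. Of these, 31 were at 10 or more in all 12 libraries, 17 reached 10 in only 3 to 5 libraries, and 7 had a mean of at least 1000. The highest were BCL2L2-PABPN1, ISY1-RAB43, RPS10-NUDT3, HNRNPUL2-BSCL2, SERF2-C15ORF63, RPL17-C18orf32, ANKHD1-EIF4EBP3 and ARPC4-TTLL3. Per library, 9.46% to 23.0% of the 74 were at 0, against 0.385% to 2.14% of all genes tested.

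Replicates of 1 group differed more for read-through genes than for other genes. The median SD within a group was 0.99 on the log2(normalized count + 1) scale for the 74, 0.31 for their 131 neighbours and 0.29 for all 13502 genes tested. Of the 74, 13 (17.6%) were at 0 in one library and at 50 or more in another library of the same group, against 3.82% of the neighbours and 0.504% of all genes. INO80B-WBP1, whose neighbours encode a chromatin remodelling subunit and a WW-domain binding protein, showed this in 3 groups and was singled out after its values were seen. It stood at 66.3, 0 and 0 in the DMSO libraries. In the DSF libraries it stood at 195, 0 and 152, and in the NSM libraries at 0, 213 and 0. Both neighbours were at 197 or more in every library. The lower mean level of read-through genes goes with this spread, and its part in it was not tested. INO80B-WBP1 itself had a mean normalized count of 103 and 0 exon bases of its own. Its values thus depend on how reads of shared exons were split, and the part of that split in the spread was not tested either.

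**Figure D2:**
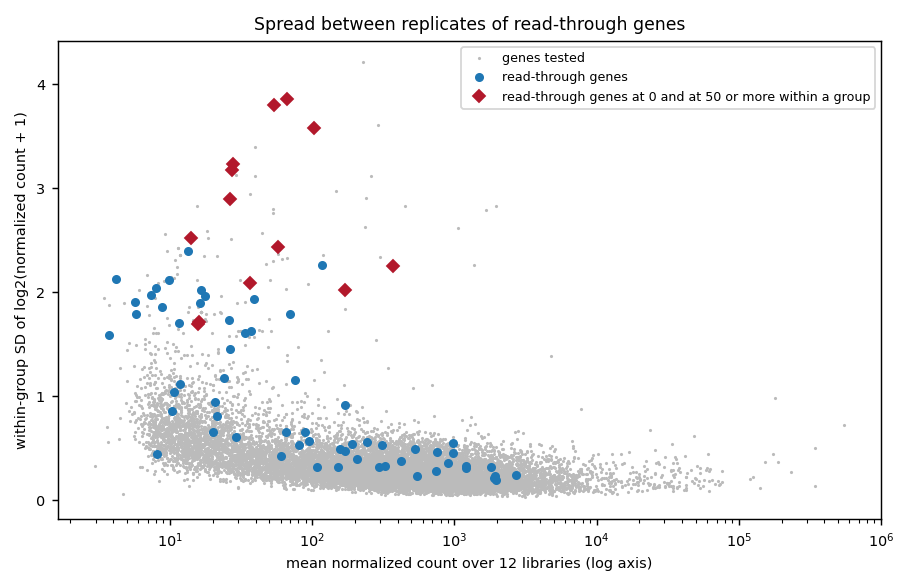
Pooled within-group SD of log2(normalized count + 1) (vertical axis) against the mean normalized count over 12 libraries (horizontal log axis), with grey dots for the 13502 genes tested. Blue circles and red diamonds are the 74 read-through genes, and the 13 diamonds, at 0 and at 50 or more within 1 group, lie above most genes of the same mean.

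The comparisons with DMSO ask which genes each drug and the combination moved. Differences were tested with limma on log2(normalized count + 1) over all 13502 genes, with 0.05 as the threshold of the adjusted p, and changes are log2 values with their SE. In bulk RNA, fewer cells with a transcript and less of it per cell cannot be told apart. With DSF, 4 of 74 read-through genes rose and 1 fell, beside 17.8% of all genes called (11.9% higher and 5.95% lower). With NSM, 15 rose and 7 fell, or 29.7%, beside 49.1% of all genes (25.4% higher and 23.7% lower). With DSF+NSM, 19 rose and 2 fell, or 28.4%, beside 52.8% of all genes (28.3% higher and 24.5% lower). The share called was thus under the background in each comparison. The rises outnumbered the falls, as they did over all genes, and the share that rose was no higher than that of all genes. The median SE was 0.72 for the 74 and 0.23 for all genes, and its part in the lower share called was not tested. Without NSM replicate 3 the counts were 11 up and 4 down with DSF, 25 up and 10 down with NSM, and with the combination 21 up and 2 down, beside 41.1%, 59.8% and 67.7% of all genes.

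The median change of the 74 was 0.10 with DSF, 0.34 with NSM and 0.52 with DSF+NSM, beside 0.05, 0.01 and 0.03 over all genes. Over the 31 genes at 10 or more in every library the medians were 0.10, 0.36 and 0.44. The DSF+NSM direction depends on the scaling. The summed normalized counts were 22.7 to 25.6 M in DSF+NSM and 14.0 to 14.4 M in DMSO. When every library was scaled to the same sum, the median of all genes moved to -0.74 and the split became 8 up and 13 down in place of 19 and 2. For NSM it became 12 up and 9 down, with a median of all genes of -0.25. The 31 genes that RefSeq calls noncoding counted 8 up and 0 down with DSF+NSM, with a median of 1.17. Of these 31, 11 had an unadjusted p under 0.05. The 42 coding ones counted 11 up and 2 down, with a median of 0.45. The share called was 25.8% and 31.0%, beside 52.8% of all genes (28.3% higher and 24.5% lower). GENCODE 44 types 59 of the 61 matched genes as protein coding, so the class depends on the source.

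The difference between a read-through gene and its neighbour in the same library does not depend on that scaling, apart from the pseudocount of 1. It was tested for 131 pairs, 70 with the upstream and 61 with the downstream gene, in a fit that also held 3252 pairs of consecutive genes on 1 strand. With DSF, 13 of 131 differences changed, 7 upward and 6 downward, beside 19.7% of the consecutive pairs (10.3% upward and 9.41% downward). With NSM, 43 changed, 26 upward and 17 downward, beside 56.2% (28.6% upward and 27.5% downward). With DSF+NSM, 31 changed, 24 upward and 7 downward, beside 60.4% in either direction, 29.2% upward and 31.2% downward. The median difference moved by 0.12, 0.35 and 0.61, while the medians of consecutive pairs stayed within 0.01 of 0. Without NSM replicate 3, 24 pairs were called with DSF, 45 with NSM and 39 with the combination. The gene fit without that library called 41.1%, 59.8% and 67.7% of all genes. The share of consecutive pairs called without it is not given here. A pair needs both genes to be measured well, and the median SE was 1.04 for read-through pairs and 0.28 for consecutive ones.

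**Figure D3:**
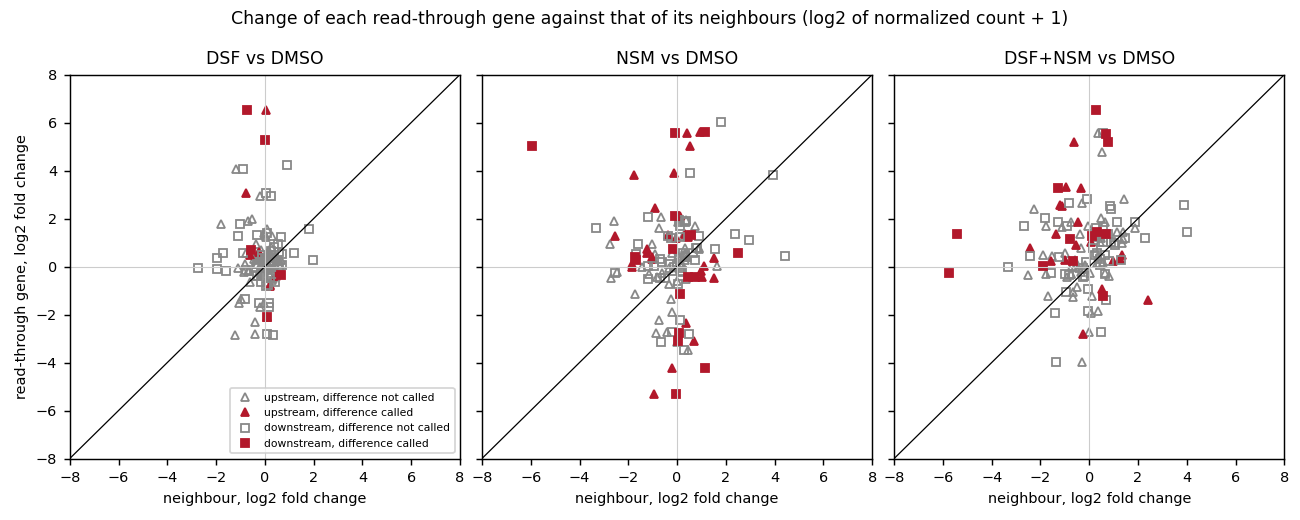
Log2 change of each read-through gene (vertical axis) against that of its upstream (triangle) or downstream (square) neighbour (horizontal axis) in the 3 comparisons with DMSO, with the line of equal change. Filled red symbols are the 13, 43 and 31 pairs whose difference was called, and with DSF+NSM 24 of the 31 lie above the line.

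The calls of the neighbours were set beside those of the read-through genes. With NSM, the upstream gene was listed for 13 of the 15 genes that rose and it rose for 5, and the downstream gene was listed for all 15 and it rose for 8, beside 25.4% of all genes. With DSF+NSM, the upstream gene was listed for 16 of the 19 genes that rose, and it rose for 5, fell for 2 and was not called for 9. The downstream gene was listed for 17 of them, and it rose for 6, fell for 2 and was not called for 9, beside 28.3% of all genes that rose. Neighbours that fell with DSF+NSM beside a read-through gene that was not called numbered 19 upstream and 8 downstream, beside 24.5% of all genes that fell.

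TNFAIP8L2-SCNM1, singled out after its values were seen, rose while its upstream neighbour fell. TNFAIP8L2 encodes a negative regulator of immune receptor signalling, and SCNM1 a splicing factor. The read-through gene stood at 342, 253 and 327 in DMSO and at 304, 352 and 361 in DSF. It stood at 772, 615 and 915 in NSM and at 867, 835 and 648 in DSF+NSM. All 6 libraries with NSM lay above all 6 without it. The change was 1.31 ± 0.19 with NSM (adjusted p = 0.000115) and 1.35 ± 0.19 with DSF+NSM (adjusted p = 7.08e-05), and both calls held without any 1 library and under equal sums. TNFAIP8L2 averaged 628 ± 28.0 (SD, n = 3) in DMSO and 241 ± 22.0 in DSF+NSM. The difference from TNFAIP8L2 moved by 1.68 ± 0.24 with NSM and by 2.73 ± 0.24 with DSF+NSM (adjusted p = 8.04e-07). SCNM1 rose too, from 645 ± 37.9 in DMSO to 1042 ± 148 in DSF+NSM, and the difference from it moved by 0.72 ± 0.22 with NSM (adjusted p = 0.014) and by 0.66 ± 0.22 with DSF+NSM (adjusted p = 0.0196), calls that were both lost without DMSO replicate 2, the first also when only the 2 groups were fitted and the second also without DSF+NSM replicate 1. Its share of the counts of the 3 genes went from 19.5% ± 2.85 in DMSO to 37.9% ± 1.14 in DSF+NSM. Against SCNM1 alone it went from 32.2% to 42.9%.

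CKLF-CMTM1, whose junction is printed above, rose while its neighbours did not. CKLF encodes a chemokine-like factor and CMTM1 a transmembrane protein of the same family. CKLF-CMTM1 stood at 9.22, 16.0 and 16.7 in DMSO, near the minimum of the filter, and at 21.7, 16.9 and 41.3 in DSF. It stood at 64.2, 68.6 and 51.7 in NSM and at 176, 119 and 128 in DSF+NSM. The DSF+NSM libraries lay above the NSM ones, and these above DMSO and DSF, with no overlap. The change was 2.09 ± 0.34 with NSM (adjusted p = 0.000288) and 3.27 ± 0.34 with DSF+NSM (adjusted p = 6.7e-06). CKLF averaged 1121 ± 118 (SD, n = 3) in DMSO and 892 ± 70.2 in DSF+NSM, and CMTM1 24.9 ± 8.21 and 10.4 ± 5.07. The difference from CKLF moved by 3.59 ± 0.38 with DSF+NSM (adjusted p = 3.99e-06) and that from CMTM1 by 4.53 ± 0.56 (adjusted p = 1.86e-05). Per exon base its share of the locus went from 1.02% ± 0.375 to 11.4% ± 2.43.

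BCL2L2-PABPN1 had the highest mean of the 74. BCL2L2 encodes the anti-apoptotic protein BCL-W, and PABPN1 the nuclear poly(A)-binding protein. The read-through gene stood at 3180.5, 2818 and 2620.3 in DMSO and at 2224, 2049 and 2201 in DSF. It stood at 2117, 1957 and 2037 in NSM and at 4329, 4294 and 2511 in DSF+NSM, where replicate 3 was below all DMSO values and the other 2 above them. It changed by -0.49 ± 0.18 with NSM (adjusted p = 0.0393), a call lost when any 1 of 8 libraries was left out, and by 0.33 ± 0.18 with DSF+NSM (adjusted p = 0.145), with the opposite sign under equal sums. BCL2L2 went the other way from the read-through gene, at 294 ± 6.74 (SD, n = 3) in DMSO and 841 ± 52.0 in NSM. The difference from BCL2L2 fell by 2.01 ± 0.20 with NSM (adjusted p = 4.76e-06) and by 0.91 ± 0.20 with DSF+NSM (adjusted p = 0.00188). The difference from PABPN1 moved by 0.19 ± 0.17 and -0.11 ± 0.17 and was not called (adjusted p = 0.362 and 0.607).

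ISY1-RAB43 was called in all 3 comparisons. ISY1 is a splicing factor and RAB43 a small GTPase of membrane traffic. The read-through gene stood at 1052, 1092 and 1185 in DMSO and at 1728, 1721 and 1474 in DSF. It stood at 3336, 2601 and 2556 in NSM and at 1885, 2012 and 2746 in DSF+NSM. Each treated library lay above each DMSO library. The change with NSM was 1.34 ± 0.16 (adjusted p = 2.98e-05) and held in every alternative. Those with DSF, 0.56 ± 0.16 (adjusted p = 0.0296), and with DSF+NSM, 0.98 ± 0.16 (adjusted p = 0.000252), were lost under equal sums, and the DSF call also when any 1 of DMSO replicates 1, 2 and 3 and DSF replicates 1 and 2 was left out. ISY1 itself averaged 1261 ± 39.1 (SD, n = 3) in NSM and 2614 ± 554 in DSF+NSM, so that the difference from ISY1 moved by 1.02 ± 0.25 with NSM (adjusted p = 0.00355) and by -0.37 ± 0.25 with DSF+NSM (adjusted p = 0.214). RAB43, the other neighbour, averaged 144 ± 53.7 in DMSO and 895 ± 569 in NSM, where it ranged from 253 to 1337, and it rose by 2.37 ± 0.48 (adjusted p = 0.00142). The difference from RAB43 moved by -1.03 ± 0.45 with NSM and was not called (adjusted p = 0.068).

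ARPC4-TTLL3 rose against its upstream gene. ARPC4 encodes a subunit of the Arp2/3 complex, which branches actin filaments, and TTLL3 modifies tubulin. The read-through gene stood at 842, 744 and 554 in DMSO and at 793, 667 and 680.4 in DSF. It stood at 1543, 1274 and 407 in NSM, where replicate 3 was the lowest of all 12, and at 1504, 1498 and 1268 in DSF+NSM. Its change with NSM was 0.40 ± 0.38 (adjusted p = 0.398), and 1.00 without NSM replicate 3 (adjusted p = 6.5e-05). Its change with DSF+NSM was 1.01 ± 0.38 (adjusted p = 0.0379), which was lost under equal sums and when any 1 of 7 libraries was left out, among them each DSF+NSM one. The difference from ARPC4 moved by 1.42 ± 0.21 with NSM (adjusted p = 9.3e-05) and by 0.96 ± 0.21 with DSF+NSM (adjusted p = 0.00149), and both calls held without any 1 library. The difference from TTLL3 was not called, at 0.09 ± 0.27 and 0.10 ± 0.27.

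MEF2BNB-MEF2B and RNASEK-C17orf49, singled out after their values were seen, also rose with DSF+NSM in every alternative. MEF2BNB encodes a subunit of the lysosome-positioning BORC complex, and MEF2B a transcription factor. MEF2BNB-MEF2B stood at 27.4, 51.4 and 51.0 in DMSO and at 135, 142 and 184 in DSF+NSM, with no overlap and a change of 1.85 ± 0.40 (adjusted p = 0.00207). Its difference from MEF2BNB moved by 2.32 ± 0.41 (adjusted p = 0.000372) and that from MEF2B by -0.03 ± 0.39 (adjusted p = 0.958). RNASEK-C17orf49, which joins a ribonuclease gene to a gene for a chromatin-associated protein, stood at 464, 385 and 446 in DMSO and at 1112, 1277 and 1097 in DSF+NSM. It changed by 1.43 ± 0.21 (adjusted p = 0.000111), and its difference from C17orf49 by 1.09 ± 0.20 (adjusted p = 0.00043). RNASEK rose as well, standing at 653, 572 and 549 in DMSO and at 1429.6, 1322 and 1184 in DSF+NSM, and the difference from it moved by 0.28 ± 0.18 and was not called (adjusted p = 0.193).

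**Figure D4:**
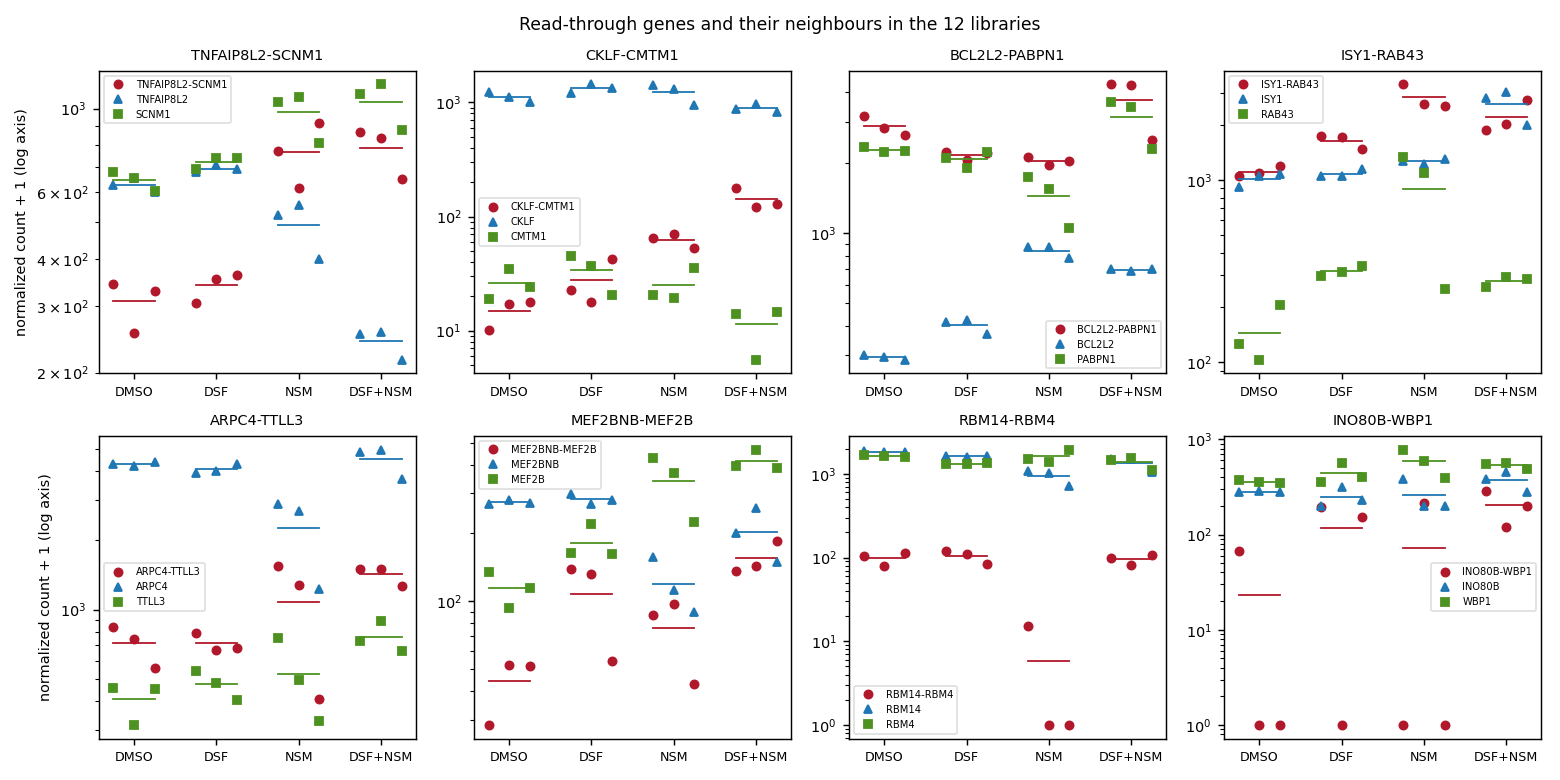
Normalized count plus 1 (log axis) of 8 read-through genes (red circles), their upstream (blue triangles) and downstream neighbours (green squares), 1 symbol per library, 3 libraries per group, lines at group means. CKLF-CMTM1 rises to 119 to 176 in DSF+NSM while CKLF is at 831 to 969, and RBM14-RBM4 and INO80B-WBP1 are at 0 in single libraries.

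Among the other 5 of the 8 highest genes, those of ribosomal proteins moved with NSM. RPS10-NUDT3 averaged 1674 ± 138 (SD, n = 3) in DMSO and 2457 ± 202 in NSM, a change of 0.55 ± 0.18 (adjusted p = 0.0215) that was lost under equal sums and when any 1 of DMSO replicates 2 and 3 and NSM replicate 2 was left out. RPL17-C18orf32 stood at 829, 716 and 688 in DMSO and at 1474, 1308 and 2716 in NSM, with no overlap and a change of 1.23 ± 0.22 (adjusted p = 0.000726). HNRNPUL2-BSCL2, joining an RNA-binding protein to the lipid droplet protein seipin, rose by 0.62 ± 0.17 with DSF (adjusted p = 0.0236), a call lost when any 1 of 5 libraries was left out, namely DMSO replicates 1, 2 and 3 and DSF replicates 2 and 3. With DSF+NSM its difference from HNRNPUL2 moved by 1.25 ± 0.24 (adjusted p = 0.00073) while HNRNPUL2 averaged 3683 ± 124 in DMSO and 1841 ± 77.4. ANKHD1-EIF4EBP3, which ends in a gene for a translation repressor, averaged 905 ± 48.3 in DMSO and 2074 ± 700.5 in DSF+NSM, a rise of 1.13 ± 0.23 (adjusted p = 0.00145) that was lost under equal sums. SERF2-C15ORF63 was not called in any comparison, with changes of -0.28, -0.18 and 0.16.

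Some read-through genes fell. RBM14-RBM4, which joins 2 genes for RNA-binding proteins, stood at 104, 77.4 and 113 in DMSO, at 14.2, 0 and 0 in NSM and at 97.9, 79.8 and 106 in DSF+NSM. Each NSM library lay below each library of the other 3 groups, and the change with NSM was -5.30 ± 0.78 (adjusted p = 0.000152), a fitted size that depends on the pseudocount since 2 libraries were at 0. RBM14 averaged 948 ± 197 (SD, n = 3) and RBM4 1617 ± 289 in NSM. BIVM-ERCC5, which ends in the gene of the DNA repair endonuclease XPG, and ARMCX5-GPRASP2 were the 2 that fell with DSF+NSM. BIVM-ERCC5 stood at 899, 975 and 1044 in DMSO and at 495, 253 and 553 in DSF+NSM, with no overlap and a change of -1.24 ± 0.32 (adjusted p = 0.00593). Its difference from ERCC5 moved by -1.78 ± 0.34 (adjusted p = 0.000566) and that from BIVM, which fell too, by 0.45 ± 0.27 (adjusted p = 0.164). ARMCX5-GPRASP2 stood at 11.5, 22.7 and 17.6 in DMSO and at 1.75, 4.63 and 0 in DSF+NSM (adjusted p = 0.00295), at levels of a few reads.

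Of the 4 read-through genes that rose with DSF, ISY1-RAB43 and HNRNPUL2-BSCL2 are given above. RTEL1-TNFRSF6B, which joins a telomere helicase gene to that of decoy receptor 3, was listed at 0 in all DMSO and NSM libraries, at 90.2, 86.6 and 97.0 in DSF and at 0, 0 and 15.5 in DSF+NSM (DSF against DMSO, adjusted p = 0.000436). ATP6V1G2-DDX39B, ending in the gene of an RNA helicase, was listed at 0 in the DMSO libraries, and at 35.9, 41.8 and 34.9 in those with DSF. It stood at 0, 0 and 46.0 with NSM and at 103, 125 and 59.9 with the combination (adjusted p = 0.00725 and 0.000347 for DSF and DSF+NSM). ATP6V1G2-DDX39B has 0 exon bases of its own, and its share of the locus was 0.67% in DSF and 1.37% in DSF+NSM. No fold is given here for these 2 genes, since groups were listed at 0. RTEL1-TNFRSF6B passed the filter only through the DSF libraries, so its p-value is not independent of that filter.

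Other rises rested on groups with libraries at 0. PTGES3L-AARSD1, singled out after its values were seen, was listed at 0 in DMSO, at 93.3, 38.6 and 27.4 in NSM and at 44.7, 22.1 and 43.6 in DSF+NSM (adjusted p = 0.000644 and 0.000899). RAD51L3-RFFL, which begins in a gene of homologous recombination, stood at 0, 113 and 0 in DMSO and at 349, 277 and 312 in NSM (adjusted p = 0.00438). C10orf32-ASMT stood at 12.4, 0 and 11.8 in DMSO and at 175, 167 and 122 in DSF+NSM (adjusted p = 0.0246), a call lost with a pseudocount of 0.1, with a replicate block (adjusted p = 0.061), and without DMSO replicate 2 or any DSF+NSM replicate. COMMD3-BMI1, ending in a Polycomb gene, stood at 46.0, 0 and 0 in DMSO and at 35.3, 129.8 and 1174 in NSM (adjusted p = 0.0087). Its NSM level rests mainly on replicate 3, and it was listed at 0 in DSF+NSM. It passed the filter only through the NSM libraries, so its p-value is not independent of that filter.

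At several loci the balance between the genes changed. C8orf44-SGK3, ending in the gene of a serum- and glucocorticoid-regulated kinase, stood at 88.4, 143 and 108 in DMSO and at 275, 272 and 311 in DSF+NSM, a change of 1.36 ± 0.29 (adjusted p = 0.00172) that was lost under equal sums. SGK3 stood at 435, 452 and 481 in DMSO and at 56.9, 0 and 19.1 in DSF+NSM. The read-through share of the counts of the 3 genes went from 18.8% ± 3.7 in DMSO to 38.9% ± 12.4 in DSF and 37.8% ± 4.03 in NSM. It was 80.7% ± 7.46 in DSF+NSM. SLMO2-ATP5E, which ends in the gene of the epsilon subunit of ATP synthase, changed by 1.27 ± 0.27 with DSF+NSM (adjusted p = 0.00178, lost under equal sums), and its difference from ATP5E by 1.16 ± 0.30 (adjusted p = 0.00475). C1QTNF3-AMACR was not called, while its difference from C1QTNF3 moved by 1.33 ± 0.33 with NSM (adjusted p = 0.00433). RPL36A-HNRNPH2 was not called either, and its difference from RPL36A moved by -1.08 ± 0.26 with NSM (adjusted p = 0.0033). Over the 74, the median share of the locus was 7.47% with DMSO, 8.34% with DSF and 9.84% with NSM, and 11.0% with the combination. It was at least 10% for 30, 34, 36 and 39 genes in the same order.

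**Figure D5:**
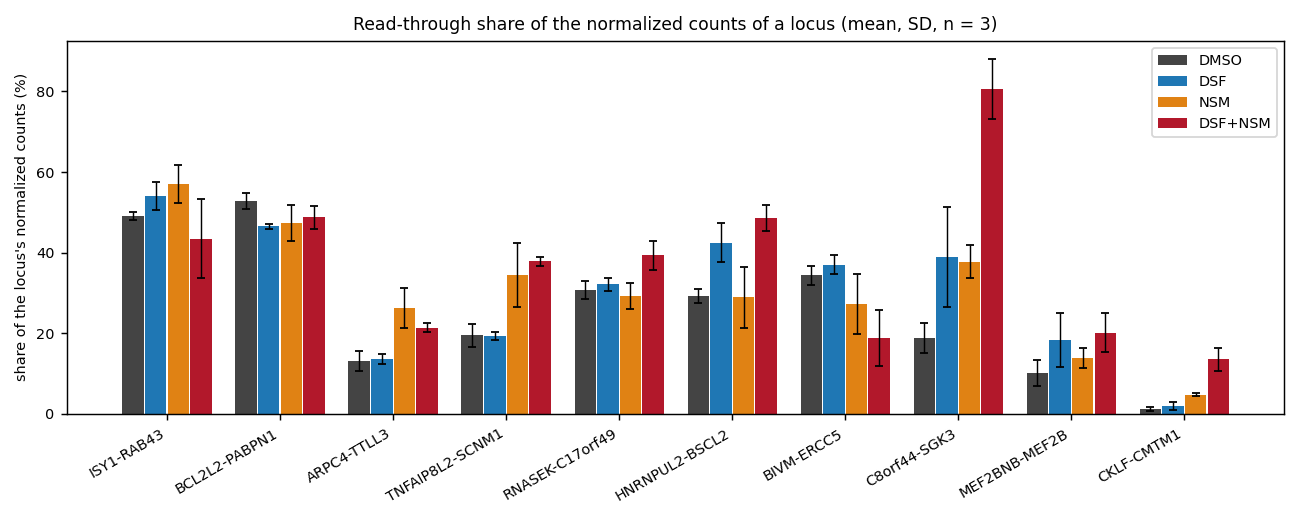
Read-through share of the normalized counts of the read-through gene and both neighbours (percent, not corrected for length) at 10 loci, bars at the mean and error bars the SD of 3 libraries in each of 4 groups. C8orf44-SGK3 goes from 18.8% in DMSO to 80.7% in DSF+NSM and TNFAIP8L2-SCNM1 from 19.5% to 37.9%, while BIVM-ERCC5 goes down.

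DYX1C1-CCPG1, singled out after its values were seen, changed with NSM by an amount between those of its neighbours. CCPG1, the gene of a receptor for autophagy of the endoplasmic reticulum, stood at 599, 689 and 791 in DMSO and at 2729.8, 3005 and 7314 in NSM. DYX1C1-CCPG1 stood at 152, 206 and 78.4 and 145, 140.5 and 377, and its difference from CCPG1 moved by -1.96 ± 0.40 (adjusted p = 0.00115). That from DYX1C1, a gene of cilium assembly, moved by 1.79 ± 0.46 (adjusted p = 0.005).

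The genes of poly(A)-site cleavage and of RNA decay were called about as often as all genes or less often, except those of decay with DSF. Of 28 genes for cleavage, polyadenylation and termination, 1 rose and 4 fell with DSF, 6 rose and 9 fell with NSM, and 4 rose and 6 fell with DSF+NSM, that is, 17.9%, 53.6% and 35.7% beside 17.8%, 49.1% and 52.8% of all genes. The medians were -0.13, -0.02 and 0.07. CPSF6, a subunit of the cleavage factor that selects poly(A) sites, changed by -1.73 ± 0.26 with NSM and by -1.38 ± 0.26 with DSF+NSM (adjusted p = 0.000186 and 0.000787). CSTF3, of the cleavage stimulation factor, changed by -1.31 ± 0.19 with NSM (adjusted p = 0.000121), and FIP1L1, which binds the poly(A) polymerase, by 1.06 ± 0.25 (adjusted p = 0.00374). Of 18 genes of nonsense-mediated decay and the exon junction complex, 3 rose and 2 fell with DSF, 6 rose and 3 fell with NSM, and 5 rose and 0 fell with DSF+NSM (10 of the 18 had an unadjusted p under 0.05). These are 27.8%, 50% and 27.8% of the list, beside 17.8%, 49.1% and 52.8% of all genes. EIF4A3, the helicase core of that complex, changed by -1.30 ± 0.21 with NSM and by 0.85 ± 0.21 with DSF+NSM (adjusted p = 0.000259 and 0.00388). UPF3B, which links the complex to decay, changed by 0.99 ± 0.21 with DSF+NSM (adjusted p = 0.00177). The part of these genes in the read-through levels was not tested.

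The interaction asks whether NSM moved a gene by a different amount with DSF than without it. It was called for 8 of 74 read-through genes, 5 upward and 3 downward, beside 26.1% of all genes (12.1% and 14%), and for 25 of 131 pairs, 16 upward and 9 downward, beside 35.5% of consecutive pairs (16.9% and 18.6%). Without NSM replicate 3 it was called for 16 genes, beside 45.7% of all genes, and for 33 pairs, for which no share of consecutive pairs is given here. BCL2L2-PABPN1 was lower in NSM than in DMSO and higher in DSF+NSM than in DSF, an interaction of 1.23 ± 0.26 (adjusted p = 0.00412). ISY1-RAB43 rose less with both drugs than the single changes add up to, with an interaction of -0.92 ± 0.22 (adjusted p = 0.00974). TGIF2-C20orf24, which begins in a gene of a TGF-beta signalling repressor, stood at 19.7, 5.97 and 0 in DSF and at 221, 269 and 158 in DSF+NSM, and at 9.82, 0 and 42.2 in NSM (adjusted p of the interaction = 0.00621). All 3 DSF+NSM libraries lay above the other 9.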

How the data were processed

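RNA of 12 SHI-1 libraries, 3 for each of 4 groups, was measured by poly(A)-selected RNA-seq. Per the file headers the authors' deposited tables, 1 for each library, hold a signal per gene, namely normalized counts scaled over 24 libraries. The study's methods name trimmomatic, STAR, Salmon and DESeq2 on GRCh38, whereas the submitters' processing notes name Trimmomatic, Bowtie2, Picard, featureCounts and DESeq2 on hg38. Which of these split the reads of shared exons is not given in the sources used here, and neither is strand. Only 32.2% to 32.9% of nonzero values of all listed genes per library were whole multiples of the library's step (tolerance 0.01 steps). For the 74 read-through genes it was 70.7% to 75.4%. Whole reads could thus not be recovered for most genes, and count models were not used. Dividing the sum by the step put the depth of a library at 10.2 to 19.0 M reads, and low values are imprecise.

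Values were taken as log2(value + 1), and 13502 genes at 10 or more in at least 3 libraries were tested in R 4.3.3 with limma 3.58.1 (trended and robust variance, all 12 libraries in 1 fit, Benjamini-Hochberg over all genes, threshold 0.05). Read-through minus neighbour was fitted per library together with 3252 consecutive gene pairs. The fits were tested on simulated data with less spread and fewer values at 0 than the read-through genes have, so that test does not cover such genes. Loci and junctions came from GENCODE 44, gene classes from RefSeq, and shares and figures from Python 3.11.15 with pandas 2.3.3 and matplotlib 3.10.9. Named are the 8 genes with the highest mean, up to 3 of the largest called rises and falls per comparison among genes with a mean of at least 50, up to 3 of the largest called pair differences each way, and the 2 largest called interactions each way. Members of a count of 5 or fewer and genes singled out after their values were seen were added, and 1 gene that these rules name is not reported here. The members, lists and tests were chosen with earlier results of these data known. Alternatives were other scalings, filters and pseudocounts, only the groups compared, a replicate block, each library left out, and shares against the larger neighbour alone.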

Additional observations from a re-analysis of the deposited data

Results flagged for a closer look

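For 8 of 74 read-through genes NSM had a different effect in the presence of DSF, beside 26.1% of all genes. This used the interaction test of limma, which is a test of the difference itself. The interaction was 1.23 for BCL2L2-PABPN1 (adjusted p = 0.00412), -0.92 for ISY1-RAB43 (adjusted p = 0.00974) and 1.17 for ANKHD1-EIF4EBP3 (adjusted p = 0.0209). The last was lost under equal sums and without DMSO replicate 1, DSF replicate 1, or DSF+NSM replicate 1 or 2. ZFP91-CNTF stood at 0, 7.75 and 3.84 in NSM and at 52.5, 63.3 and 19.98 in DSF+NSM, with an interaction of 3.59 (adjusted p = 0.0154). Its size and those of the other 4 depend on the pseudocount because of libraries at 0. Those of the other 4 were 5.17 for RBM14-RBM4 (adjusted p = 0.0048), 7.57 for TGIF2-C20orf24 (adjusted p = 0.00621), -7.84 for COMMD3-BMI1 (adjusted p = 0.018) and -5.18 for RTEL1-TNFRSF6B (adjusted p = 0.00914). The calls of ZFP91-CNTF and RTEL1-TNFRSF6B were lost with a pseudocount of 0.1 (adjusted p = 0.0601 and 0.0618). RTEL1-TNFRSF6B was at 0 in all DMSO and NSM libraries and COMMD3-BMI1 in all DSF+NSM ones, so these fitted values are no folds. COMMD3-BMI1 was at 1174 in NSM replicate 3, the library that stood apart. RTEL1-TNFRSF6B passed the filter only through the DSF libraries, and COMMD3-BMI1 only through the NSM ones.

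The same test was passed by 13 differences from a neighbour among the named pairs, which were in part picked by their values. Over all 131 pairs it was called for 25 (19.1%), beside 35.5% of consecutive pairs. The interaction was 1.96 for BCL2L2-PABPN1 minus BCL2L2 and -1.85 for ISY1-RAB43 minus ISY1. It was 2.08 for DYX1C1-CCPG1 minus CCPG1 and 1.34 for RNASEK-C17orf49 minus C17orf49. It was -1.72 for C1QTNF3-AMACR minus C1QTNF3. It was 1.24 for RPL36A-HNRNPH2 minus RPL36A, 1.07 for ANKHD1-EIF4EBP3 minus ANKHD1 and 1.05 for TNFAIP8L2-SCNM1 minus TNFAIP8L2. At loci with libraries at 0 it was 5.08 for RBM14-RBM4 minus RBM4, 4.47 for RBM14-RBM4 minus RBM14, 7.56 for TGIF2-C20orf24 minus TGIF2, -7.58 for COMMD3-BMI1 minus COMMD3 and -6.76 for COMMD3-BMI1 minus BMI1. Some of these calls were lost when 1 library was left out, namely RPL36A-HNRNPH2 minus RPL36A without DSF replicate 1, ANKHD1-EIF4EBP3 minus ANKHD1 without any 1 of 8 libraries, TNFAIP8L2-SCNM1 minus TNFAIP8L2 without any 1 of 7, and COMMD3-BMI1 minus COMMD3 without any 1 of 3 and minus BMI1 without any 1 of 7. Both COMMD3-BMI1 calls were also lost with a pseudocount of 10. Adjusted p-values from limma ranged from 0.000325 to 0.032.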

How the results depend on the processing

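Of 43 called changes of named genes, 24 held under every alternative, and of 52 called differences of named pairs, 33 did. Testing only genes at 10 or more in every library left 31 read-through genes, of which 9 were called with NSM and 3 for the interaction, and 19 pairs were called with NSM, 16 with DSF+NSM and 13 for the interaction. Of all genes at that filter, 51.9% were called with NSM and 28.4% for the interaction. Fitting only the 2 groups compared called 19 of 72 genes and 25 pairs with DSF, beside 54.0% of all genes in that fit. Leaving out each library in turn gave 2 to 15 genes with DSF, 16 to 35 with NSM, 17 to 23 with DSF+NSM and 7 to 16 for the interaction. For pairs it gave 5 to 24 with DSF, 32 to 46 with NSM, 27 to 39 with DSF+NSM and 18 to 33 for the interaction. In the gene fits 6.75% to 41.1%, 40.1% to 59.8%, 44.3% to 67.7% and 19.4% to 45.7% of all genes were called, in the same order. For the pair counts of these alternatives, neither the number tested nor the share of consecutive pairs is given here, and shares of genes do not replace it. The highest counts of genes with DSF, NSM and the interaction came without NSM replicate 3. With libraries scaled to equal sums, 4 changes with DSF+NSM that were not called had the opposite sign, at -0.45 for BCL2L2-PABPN1, -0.54 for RPS10-NUDT3, -0.53 for HNRNPUL2-BSCL2 and -0.63 for SERF2-C15ORF63. With a denominator of the larger neighbour alone, 35 of 116 shares moved by over 1 SD. Values at a few reads and libraries at 0 limit the depth at which a low read-through gene can be compared.

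The labels give the groups the same replicate numbers. Samples of the same number deviated from their group means with correlations of -0.06 to 0.28 (median 0.06). For different numbers they were -0.23 to 0.24 (median -0.0265). Correlations this weak do not settle whether the numbers pair the samples. With the replicate number as a block, 7 genes were called with DSF, 25 with NSM, 20 with DSF+NSM and 10 for the interaction, and 14, 47, 33 and 27 pairs, all within 1.5 times the counts without it. The block fit called 18.7%, 50.7%, 53.9% and 27.0% of all genes, in the same order. Its share of consecutive pairs is not given here. It lost the DSF+NSM calls of C10orf32-ASMT, of RAD51L3-RFFL minus RFFL and of TGIF2-C20orf24 minus TGIF2 (adjusted p = 0.061, 0.0556 and 0.0609).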

Other observations

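The 5 names that carry only a suffix join no 2 genes, and C1R-2 among them moved most. It is listed beside C1R, the gene of a complement protease, and rose by 3.30 ± 0.47 (SE) with NSM (limma adjusted p = 0.000118) and by 3.23 ± 0.47 with DSF+NSM (adjusted p = 0.000106). AC159540.1-2 fell by 1.63 with NSM (adjusted p = 0.000208), by 1.20 with DSF+NSM (adjusted p = 0.00155) and by 0.84 with DSF (adjusted p = 0.037). ECSCR-2, N4BP2L2-IT2 and ASAP1-IT2 were not called in the comparisons with DMSO.

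The distance between neighbours and the number of bases of their own were set beside the calls. With DSF+NSM, 11 of 32 read-through genes whose neighbours lie under 5000 bases apart rose and 1 fell, with a median change of 1.00, and 3 of 26 with a wider gap rose, with a median of 0.37, beside 28.3% of all genes that rose. With NSM, 10 of 39 genes with under 200 bases of their own rose and 2 fell, and of 19 with 200 bases or more 0 rose and 4 fell, beside 25.4% of all genes that rose and 23.7% that fell. These classes were chosen after seeing the data, and their differences were not tested.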
